A study of Mus musculus with 22 samples.

Results

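The genes of the cytosolic ribosomal proteins were followed through exit from mitosis in PolII ChIP-seq peak lists. They were chosen by name, as the autosomal protein-coding genes of GENCODE vM1 (mm9) whose symbol starts with Rpl or Rps and a digit, together with Rplp0, Rplp1, Rplp2 and Rpsa and without the Rps6k kinases and Rps19bp1. This gave 133 of 21418 genes. Of these, 39 encode large subunit proteins, 30 small subunit proteins (Rpsa included) and 3 the P stalk, and these 72 genes are called core genes below. A further 8 are paralogs such as Rpl22l1, and 53 are single-exon copies with the suffix "-ps", which the annotation lists as protein-coding although such copies usually arise from retrotransposed mRNA. The X-linked genes Rpl10, Rpl36a, Rpl39 and Rps4x lie outside the rule.

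Every cytosolic ribosome carries a single copy of nearly all of these proteins, so a growing cell has to make them in equal amounts, and their genes rank among the most heavily transcribed by PolII. Their mRNAs start with a C and a run of pyrimidines, the TOP motif, through which translation is coupled to mTOR signalling, and many of their introns hold small nucleolar RNA (snoRNA) genes. Erythroid precursors depend strongly on ribosome supply: mutation of Rps19, Rps24, Rps26, Rps10, Rpl11 or Rpl35a causes Diamond-Blackfan anaemia in people.

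PolII was mapped by ChIP-seq in the line G1E-ER4, mouse proerythroblasts derived from GATA1-null cells, in which both CTCF alleles carry a C-terminal AID-mCherry fusion and a retrovirus supplies OsTiR, so that auxin degrades the CTCF protein. All groups share this background. Cells arrested in prometaphase with nocodazole, without auxin (control) or with it, were released for 0, 60, 120 or 240 min to give prometaphase, early-G1, mid-G1 and late-G1 cells, and were sorted on mCherry and DNA content. Each condition had 3 libraries in mid-G1 and 2 at the other stages, 18 in all, and 1 input per stage, so that a stage and its input cannot be told apart. Because the tagged cells are a derivative of 1 line, the libraries describe that line. Peaks at all 10 erythroid precursor markers tested (Kit, Gata2, Tal1 and others) were present in all 14 post-mitotic libraries, while the 3 mature erythroid genes tested had peaks in 8, 5 and 0 of the 14, and the 8 markers of other tissues had none in any.

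The lists held 2414 to 3918 peaks in prometaphase and 50594 to 117125 after mitosis, at a depth recovered from the lists of 4.94 to 5.96 and 4.51 to 13.3 reads per kb of genome. By this recovered depth, which is not a read total, late-G1 control replicate 3 was the deepest. In that library 13 core genes stood among the 100 strongest peaks, against 3 to 8 in the other post-mitotic libraries. A link between depth and this count was not tested. A gene was detected when a peak touched the gene or its 500 bp flanks. Its rank was the best place of such a peak in the list ordered by fold enrichment over background, with rank 1 for the strongest peak. Peak height is a value at the summit. The best peak was taken over the whole window, so rank and detection can depend on gene length.

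The start sites of the genes that lead the results below were read from the mm9 sequence. Each line gives 10 bases before an annotated coding transcript start and 20 from it, in the direction of the gene. Capitals mark the unbroken pyrimidine run that begins at the start with a C, where this run has at least 5 bases. The genes with such a run are shown first, and the last 4, among them Rps20 and Rps12 with their very strong peaks, have none at any annotated start.
Rps2, chr17:24857045-24857074, plus strand: gcgcctccctCTTCTTCTTCTTCgggagaa
Rps9, chr7:3655630-3655659, plus strand: cgccttgtctCTCTTTgtctcgggcctgag
Rps10, chr17:27772166-27772195, minus strand: acgccccttcCTTTCCagcctccgcctcgg
Rps24, chr14:25309930-25309959, plus strand: gtgagcggtcCTCTTTTCCTCCTCTCCagc
Rpl32, chr6:115758746-115758775, minus strand: gccgccgcctCTTCCTTCTTCCTCggcgct
Rpl13a, chr7:52384088-52384117, minus strand: aagacctcctCCTTTCCCaggcggctgccg
Rps20, chr4:3762793-3762822, minus strand: ggcggttcctgttccgggtcacaaagcacc
Rps12, chr10:23506996-23507025, minus strand: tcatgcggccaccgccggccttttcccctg
Rplp0, chr5:116009466-116009495, plus strand: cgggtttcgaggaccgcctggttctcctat
Rpl11, chr4:135608986-135609015, minus strand: cgcgacgtgcggaggtccacggcggggcca

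By this letter search (a C at the start and at least 4 more C or T, gene strand only), 15 of the 72 core genes (20.8%) had a TOP-like annotated start, against 4.03% of all 21418 genes. The share was 5 of 39 in the large subunit, 10 of 30 in the small subunit and 0 of 3 in the P stalk. Translation factors known for TOP mRNAs had 5 of 17, and mitochondrial ribosomal proteins 3 of 77 (3.9%). At the outermost annotated start of the gene only 3 of 72 core genes (4.17%) matched, against 2.1% of all genes, so the count depends on which annotated start is read, and a start without a match says only that these letters are not at that position. The median mean rank was 521.9 for the 15 genes with such a start and 452.5 for the 57 without.

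After mitosis PolII peaks were present at all 72 core genes in every one of the 14 libraries. Among all 133 ribosomal protein genes, 77 (57.9%) were detected in all 14, against 43.8% of all genes. The other 5 were paralogs, Rpl22l1, Rpl7l1, Rpl36al, Rps27l and Rpl3l, while Rps4y2 and the germ cell paralogs Rpl10l and Rpl39l had no peak in any of the 14. Among the 53 single-exon copies, 51 had none. Rps6-ps1 had a peak in 10 libraries, at ranks from 13939 to 56741. Rps12-ps3, whose window overlaps Pdzd8, had a peak in 7, at ranks from 19046 to 86214. These ranks lay far below those of every core gene. The copies repeat the sequence of their parent genes in part: a median of 69.0% of the 36-base words in their windows occur once in the genome (0 to 97.8%), against 88.4% for large subunit and 88.9% for small subunit genes, and reads of low mapping quality were removed before peaks were called. The part of this in the missing peaks was not tested.

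Core genes stood near the top of the lists. Averaged over the 14 post-mitotic libraries, the rank of the 72 core genes had a median of 453.7, against 4619.4 over the 9383 genes detected in all 14; over the 77 detected ribosomal protein genes it was 454.9. Of the core genes, 59 had a mean rank within the top 1000 and 3 within the top 100. For the 50 core genes with no other coding gene in their window the median was 435.9. Small subunit genes had a median of 352.0, large subunit genes 541.4 and the P stalk genes 284.1. The median fold enrichment of the core genes lay between 39.5 and 62.1 in a library, against 13.3 to 28.8 for all detected genes. The 28 core genes that host snoRNA genes had a median mean rank of 300.0 and the 44 without 549.1, a difference given as a description only.

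The plot of ranks in the 18 libraries shows this order.

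**Figure D1:**
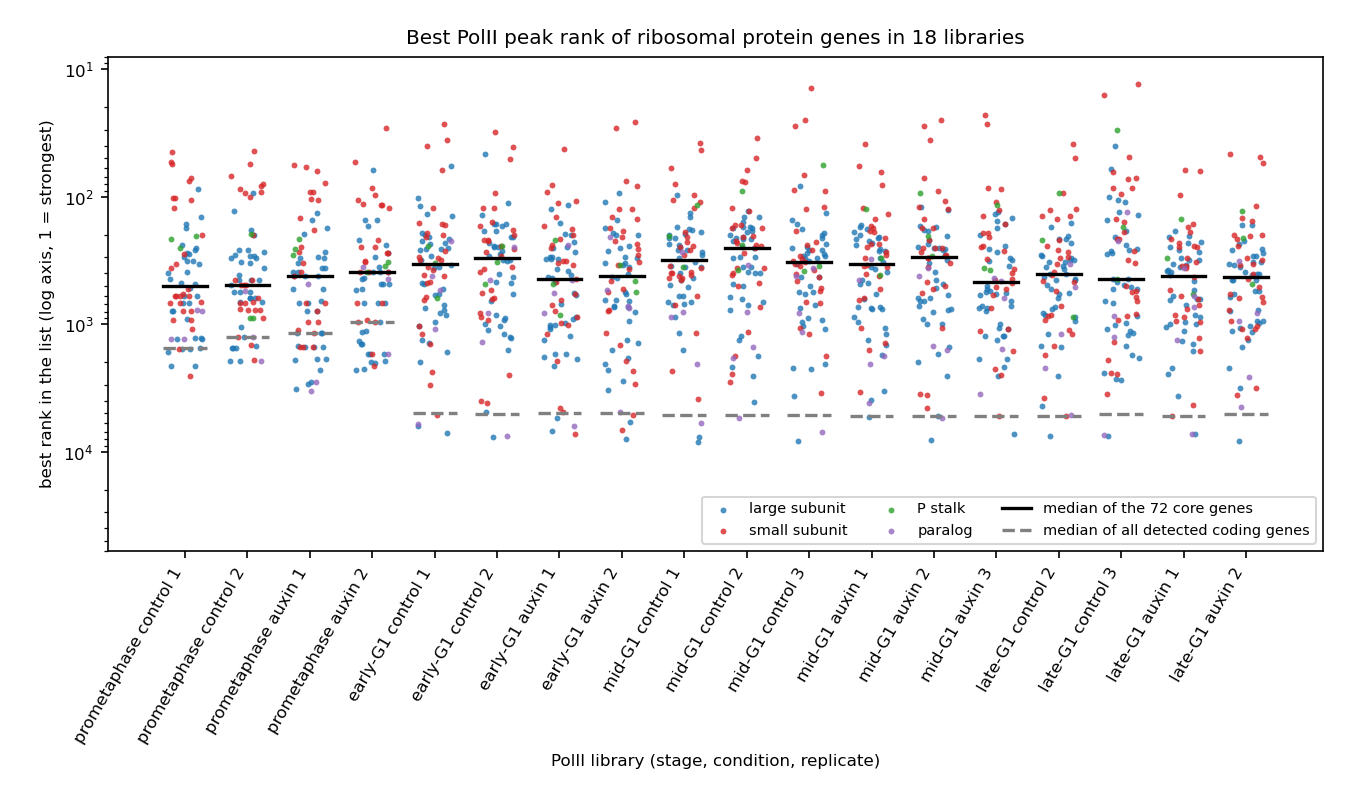
Best PolII peak rank (log axis, strongest at the top) of each detected ribosomal protein gene in the 18 libraries, coloured by class. In each library a black bar marks the median of the 72 core genes and a dashed grey bar the median of all detected protein-coding genes. After mitosis the core median stays between 252 and 466 in all 14 libraries, while the median of all genes lies between 4987 and 5236.

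The strongest member was Rps2, which encodes a small subunit protein at the mRNA entry site. Its ranks were 62 and 51 in early-G1 control, 81 and 75 in early-G1 auxin, 38, 50 and 28 in mid-G1 control, 58, 25 and 27 in mid-G1 auxin, 50 and 13 in late-G1 control and 62 and 46 in late-G1 auxin libraries. Every library thus placed it in the top 100, with a mean rank of 47.6 ± 19.7 and a fold enrichment of 90.5 ± 7.47 (SD, n = 14). Its window also overlaps Rnf151 and Ndufb10, and peaks cannot be assigned between overlapping genes.

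Next came Rps20 with a mean rank of 64.3 ± 32.6, Rps12 with 87.0 ± 61.0, Rps27 with 108.4 ± 137.4 and Rps9 with 135.3 ± 70.3 (SD, n = 14). Rps12 ranked between 29 and 42 in the 4 early-G1 libraries, between 97 and 185 in the 6 mid-G1 libraries and between 16 and 63 in the 4 late-G1 libraries. Its mid-G1 ranks were therefore the weaker ones in both conditions. Rps9 showed the opposite order, with ranks of 168 to 251 in early-G1, 64 to 90 in mid-G1 and 71 to 247 in late-G1. Rpsa, also known as the laminin receptor, had a mean rank of 142.4 ± 72.9, and Rpl4, the strongest large subunit gene, 160.4 ± 82.6 (SD, n = 14). Given these spreads, neighbours in this order could not be told apart.

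The P stalk recruits elongation factors to the ribosome. Rplp0, its base, had a mean rank of 198.0 ± 166.7, Rplp1 284.1 ± 70.4 and Rplp2 471.6 ± 211.1 (SD, n = 14). Peaks covered 89.9% of the Rplp0 window, 100.0% of the Rplp1 window and 99.7% of the Rplp2 window on average.

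At the other end of the order stood Rpl15, with 5986.5 ± 2153.7 (SD, n = 14) and ranks from 2407 to 8451. Rpl3l, a paralog used in muscle, had 5764.6 ± 1258.8, all 14 of its summits lay beyond its annotated end, and its window overlaps Sepx1. Rpl13a, a large subunit protein that also silences inflammatory mRNAs, had 5627.9 ± 2033.1. Rps29 had 3292.6 ± 1236.8. Although their proteins enter every ribosome like the others, Rpl15, Rpl13a and Rps29 had mean ranks around the median of all detected genes, 4619.4. At their best peaks the local background of the peak caller was divided by the genome-wide one, after a constant was added to both. The mean ratio was 1.05 for Rpl15, 1.00 for Rpl13a and 1.15 for Rps29 (median of all genes 1.049). The constant damps differences in background, and the part of background in these ranks was not tested.

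Peaks covered at least 90% of the window in 54 of the 72 core genes (median 95.96%, against 15.4% for all detected genes and 56.4% for other genes of at most 5 kb), and 46 core windows held no base without a peak. In 6 core genes, however, the annotated gene start lay inside a stretch of at least 500 bp that carried no peak in any of the 18 libraries. Among them were Rps29 (chr12:70259590-70268407, 8818 bp), Rps21 (chr2:179991054-179992609, 1556 bp), Rpl3 (chr15:79913314-79914806, 1493 bp) and Rpl15 (chr14:19102870-19104124, 1255 bp). Of the Rpl13a window 40.2% had no peak in any post-mitotic library, away from its gene start. The rest of these windows was not empty: 43.2% of the Rps29 window and 82.4% of the Rpl3 window were covered in all 14 post-mitotic libraries.

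The parts of the peak-free stretches that lie in the gene windows were mostly unique sequence. They measured 1084 bp at Rps29, 1023 bp at Rpl3 and 1028 bp at Rps21, and the rest of these stretches was not examined. Inside these parts 100.0% of the 36-base words of the Rpl3 window occur once in the genome, 95.6% at Rps21 and 87.7% at Rpl15, while Rps29 had 61.1%. No peak lay within 250 bp of the gene start in any post-mitotic library at 4 of the 72 core genes (5.56%) and at 11.5% of the 9383 detected genes. The study removed reads in blacklisted intervals before calling peaks, and whether these stretches are such intervals was not tested. The ranks of the 6 genes therefore come from peaks away from the annotated gene start. Even so Rpl3 reached a mean rank of 202.3 ± 134.3 (SD, n = 14) and Rps21 1353.9 ± 951.9.

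The place of the best peak within each gene was counted next. Of the 1008 best summits of core genes after mitosis, 71.8% lay within 500 bp of an annotated transcript start, as did 71.1% of the summits of all detected genes. A further 23.3% lay beyond the annotated gene end, against 8.22% for all genes and 14.7% for other genes of at most 5 kb. In the gene body there were 4.66%, against 14.9%. The 6 genes with a peak-free start gave 92.9% of their summits downstream, and without them the share was 17.0% of 924 summits. Core genes whose summits lay mostly downstream numbered 13, among them Rpl4 (13 of 14 libraries), Rps18 (14), Rps19 (13) and Rpsa (13) outside those 6. The summits of 1 gene over the libraries share its sequence and are not independent, so no test was made.

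In prometaphase, when transcription is largely shut down, ribosomal protein genes had PolII peaks far more often than other genes did. Of the 133 genes, 63 (47.4%) had a peak in all 4 prometaphase libraries, against 4.35% of all genes (932 of 21418). Of the core genes it was 61 of 72 (84.7%), with 34 of 39 in the large subunit, 24 of 30 in the small subunit and 3 of 3 in the P stalk. The 2 paralogs among the 63 were Rpl22l1 and Rpl7l1. Mitochondrial ribosomal protein genes reached 5 of 77 (6.49%), ribosome biogenesis genes 8 of 34 and translation factors 9 of 17.

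Detection of the core genes reached 68 and 66 without auxin and 65 and 65 with it. Their median rank lay between 392 and 504.5 and that of all detected genes between 958 and 1550, and the median fold enrichment was 11.3 to 11.6 against 7.53 to 7.72. Peaks covered a median of 8.0 to 16.4% of a core window, against 89.98 to 99.03% after mitosis. With 2 libraries against 2 an exact permutation test cannot give a p-value below 0.333, and none was run between control and auxin in prometaphase.

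The 10 strongest members in prometaphase were Rps9, Rps2, Rps12, Rps20, Rps28, Rps27, Rpsa, Rps19, Rps18 and Rpl3, with mean ranks from 70.0 to 148.0. Of these, 9 belong to the small subunit. Rps9 ranked 45 and 87 in the control and 63 and 85 in the auxin libraries, Rps2 102 and 82 against 92 and 29, and Rps20 56 and 44 against 107 and 106. The control and auxin ranks overlapped for Rps9 and Rps2 and did not for Rps20. Rps19, the gene most often mutated in Diamond-Blackfan anaemia, ranked 71 and 100 in control and 105 and 116 in auxin libraries. Rpl38, which favours translation of Hox mRNAs, had the ranks 163 and 290 in control and 2860 and 1996 in auxin libraries, a difference that was not tested and was picked after its values were seen.

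**Figure D2:**
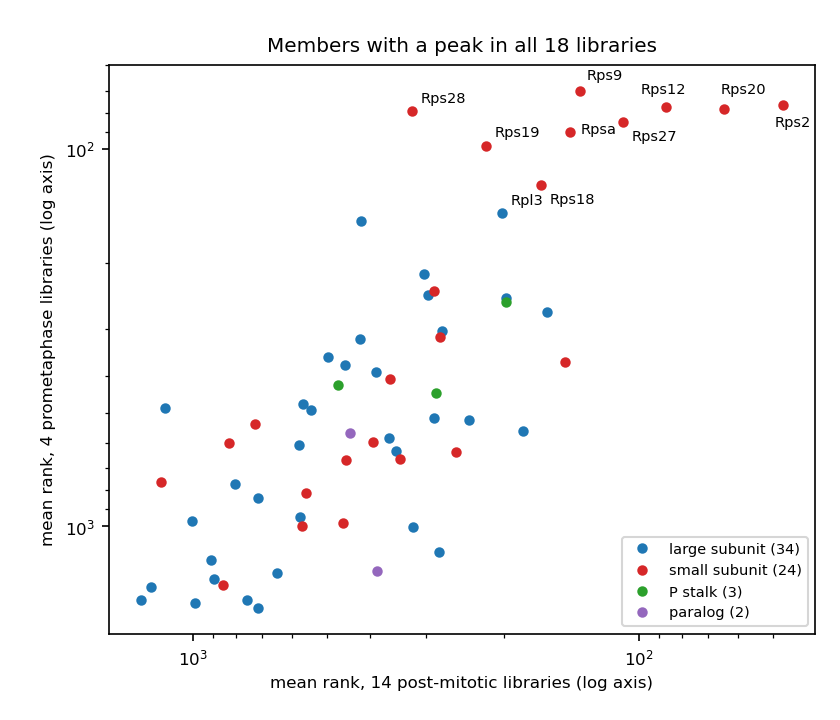
Mean rank over the 4 prometaphase libraries against mean rank over the 14 post-mitotic libraries (log axes, strongest at the upper right) for the 63 ribosomal protein genes detected in all 18 libraries, coloured by class, with the 10 strongest in prometaphase named. Rps2, Rps20, Rps12, Rps27 and Rps9, the 5 strongest after mitosis, are all among these 10.

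Core genes without a constant prometaphase peak numbered 11. Among them, Rpl13a had none in any of the 4 libraries. Rpl22 and Rps29 had a peak in 1, Rps16, Rpl35 and Rps21 in 2, and Rpl30, Rps25 and Rpl15 in 3. Rps16 was detected in both control and neither auxin library. Rps29, Rps21 and Rpl15 are among the 6 with a peak-free gene start.

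To ask whether CTCF loss changed PolII at these genes after mitosis, ranks were compared between auxin and control with limma over the 9383 genes detected in all 14 libraries, 77 members among them, as differences in −log2 rank. A difference of −1 means a doubled rank number, a weaker place. No ribosomal protein gene passed a Benjamini-Hochberg adjusted p-value of 0.05 in the contrast averaged over the 3 post-mitotic stages, in which 0.778% of all genes did (31 weaker and 42 stronger). At an unadjusted p-value under 0.05 there were 14 members weaker with auxin and 0 stronger, against 445 and 457 of all genes. Within a stage 0 members passed as well: 0.0746% of all genes did in early-G1, 0.181% in mid-G1 and 0.245% in late-G1. Unadjusted, the members numbered 6 weaker and 0 stronger in early-G1, 9 and 0 in mid-G1, and 12 and 4 in late-G1, against 203 and 176, 265 and 566, and 460 and 350 of all genes. An F test of whether the effect of auxin differed between stages called 0 members (0.032% of all genes; unadjusted 7 members, or 9.09%, and 4.79% of all genes).

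Most members had a small negative difference. The median difference with auxin was −0.27 for the 77 members and 0.01 for all genes, and 59 members (76.6%) were negative, against 48.4% of all genes. Large subunit genes had a median of −0.31, small subunit genes −0.15 and P stalk genes −0.27. In early-G1 the medians were −0.27 for members and −0.01 for all genes, in mid-G1 −0.17 and 0.10, and in late-G1 −0.35 and −0.07. Ribosome biogenesis genes had −0.21, translation factors −0.11 and mitochondrial ribosomal protein genes −0.13. Members share their libraries, so these medians carry no test. On the scale of summit pileup over the genome-wide background, which does not use ranks, the members' median was 0.00 and that of all genes 0.06, with 40 of 77 negative (51.9%, against 31.9%).

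The largest difference was at Rpl12, a large subunit protein at the base of the stalk. In early-G1 it ranked 251 and 232 in control and 979 and 2299 in auxin libraries, in mid-G1 234, 159 and 135 against 303, 252 and 146, and in late-G1 440 and 139 against 1001 and 393. The conditions were apart in early-G1 and overlapped in mid-G1 and late-G1. Over the 3 stages the difference was −1.45 (SE 0.33, adjusted p = 0.0568, limma), short of the threshold. The Rpl12 window also overlaps Lrsam1, and its peaks cannot be assigned between the genes.

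Rpl9 ranked 256 and 290 in control and 299 and 658 in auxin libraries in early-G1, 324, 250 and 323 against 1195, 1976 and 745 in mid-G1, and 351 and 131 against 374 and 408 in late-G1. It was weaker in every auxin library of a stage than in every control library of it, with a difference of −1.20 (SE 0.29, adjusted p = 0.0815, limma). The Rpl9 window also overlaps Lias. Rpl27a went from 201 and 165 to 226 and 342 in early-G1 and from 210, 173 and 154 to 755, 624 and 786 in mid-G1, while late-G1 had 431 and 61 in control and 346 and 415 with auxin. Its conditions were apart in early-G1 and mid-G1 only, and the difference was −1.28 (SE 0.34, adjusted p = 0.123, limma).

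On the positive side the differences were smaller. Rpl32 had 0.74 (SE 0.37), Rpl13a 0.48 (SE 0.29) and Rpl10a 0.46 (SE 0.24), with adjusted p-values of 0.577, 0.633 and 0.587 by limma. The Rpl13a window also overlaps Flt3l. Late-G1 control replicate 3 placed Rpl32 at 2707, where replicate 2 had 315 and the auxin libraries 185 and 225. Single stages gave the closest approach to the threshold at Rpl23, which ranked 235 and 163 in early-G1 control and 1087 and 718 in early-G1 auxin libraries (difference −2.17, SE 0.38, adjusted p = 0.0509, limma), while in mid-G1 it ranked 248, 178 and 193 against 199, 121 and 131. The test of the difference between stages gave an adjusted p of 0.35 for Rpl23 (limma F test).

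**Figure D3:**
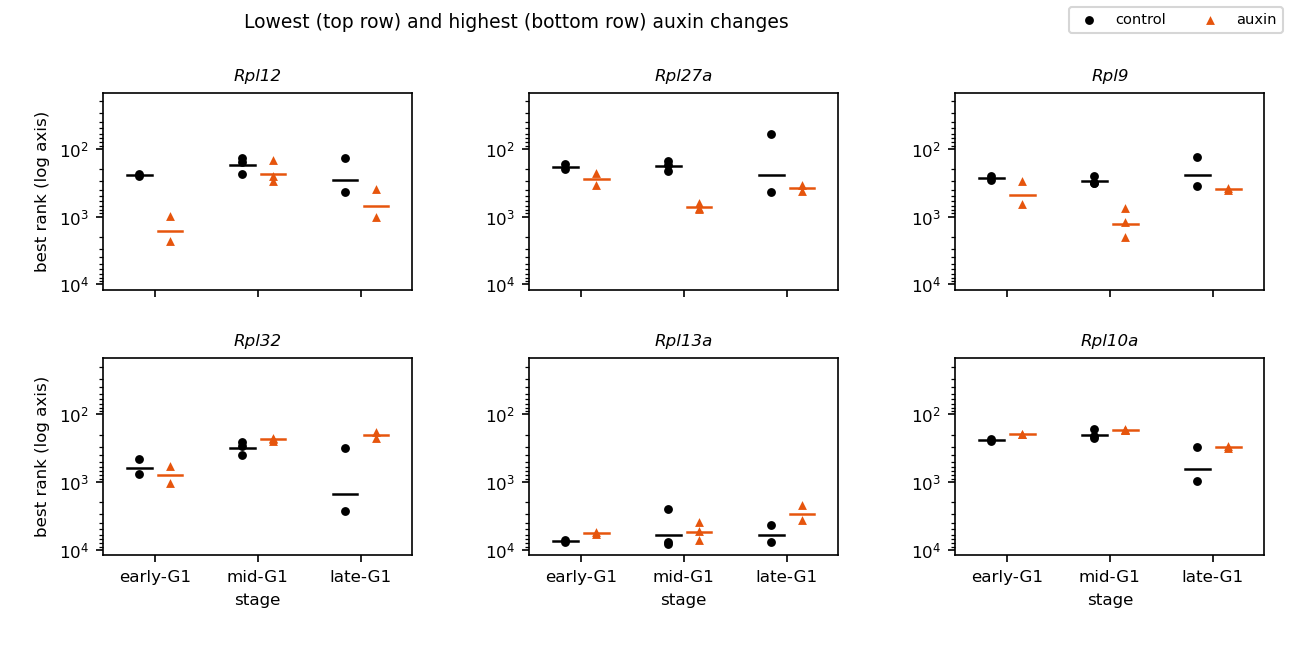
Best peak rank (log axis) of the 3 members with the most negative (Rpl12, Rpl27a, Rpl9) and the 3 with the most positive (Rpl32, Rpl13a, Rpl10a) difference between auxin and control, by stage; circles are control and triangles auxin libraries, and bars are means. None passed the threshold, and conditions overlap in 1 or more stages for all but Rpl9.

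These counts of 0 depend on single libraries. Counts given below without the share of all genes describe the members only. Without late-G1 control replicate 2, 9 members passed over the 3 stages (7 weaker and 2 stronger) and 11 in late-G1 alone (6 weaker and 5 stronger), that is 11.7% and 14.3% of the members, against 1.73% and 2.95% of all genes. This leaves that group with replicate 3 only, whose spread is then taken from the other groups. Over the 3 stages, 2 members passed without mid-G1 auxin replicate 3 and 1 without late-G1 auxin replicate 2, and without late-G1 control replicate 2 or 3 there was 1 in early-G1 and 2 in mid-G1. For the length covered by peaks, 0 members and 0.0% of all genes passed (unadjusted 0 members, and 186 shorter and 171 longer of all genes), and the members' median difference in log2 covered bases was −0.002.

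From early-G1 to late-G1 the genes changed places in both directions. Of the 77 members, 11 (14.3%) passed the threshold in limma, and 13.5% of all genes did, so the share was near that of all genes. Of the members 7 became weaker (7.18% of all genes) and 4 stronger (6.29%), with a median difference of −0.08 against 0.00 for all genes. The counts were 4 weaker and 1 stronger among the 39 large subunit genes, 3 and 2 among the 30 small subunit genes, and 0 and 1 in the P stalk. The test of whether this change differed between control and auxin called 0 members (0.032% of all genes; unadjusted 9 members, or 11.7%, and 4.86% of all genes). On the scale of summit pileup 0 of the members passed, and 3 ranked by −log10 p-value or as normal scores. The shares of all genes in these fits are not given here, so these counts describe the members only.

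The strongest gain was at Rps10, a small subunit protein near the mRNA entry channel. It ranked 2392 and 2526 in control and 4570 and 2325 in auxin libraries in early-G1, between 357 and 428 in the 6 mid-G1 libraries, and 457 and 331 in control and 944 and 618 in auxin libraries in late-G1. All 10 later libraries were stronger than all 4 early ones, and the difference between late-G1 and early-G1 was 2.38 (SE 0.27, adjusted p = 0.000154, limma). Its fold enrichment was 25.5 to 33.2 in early-G1 and 35.6 to 59.6 in late-G1.

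Rplp0 moved from 333 and 489 in control and 486 and 460 in auxin libraries to between 57 and 126 in mid-G1 and to 93 and 30 in control and 150 and 130 in auxin libraries in late-G1. Here too the stages did not overlap, and the rank difference was 2.35 (SE 0.35, adjusted p = 0.000672, limma), but on the pileup scale it was −0.15, where the median of all genes shifted by −0.11. Rps23, a protein of the decoding centre, ranked 652 to 1198 in early-G1, 209 to 479 in mid-G1 and 86 to 442 in late-G1 (1.72, SE 0.41, adjusted p = 0.0132, limma; −0.22 on the pileup scale). Rpl26, which binds the p53 mRNA, ranked 482 to 923, 169 to 349 and 154 to 390 (1.22, SE 0.31, adjusted p = 0.018, limma; −0.03 on the pileup scale). Relative to the shift of all genes, the pileup differences were −0.04 for Rplp0, −0.11 for Rps23 and 0.09 for Rpl26.

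Among the genes that fell in rank, Rpl11, which can bind and inhibit the p53 regulator Mdm2, had the largest difference. It ranked 358 and 313 in control and 311 and 252 in auxin libraries in early-G1, 671 to 2228 in mid-G1, and 2552 and 1862 in control and 633 and 1338 in auxin libraries in late-G1. Early-G1 was stronger than every later library, with a difference of −2.21 (SE 0.36, adjusted p = 0.00121, limma). Its fold enrichment fell from 51.0 to 61.2 in early-G1 to 25.2 to 42.1 in late-G1. Rpl11 is annotated over 25164 bp, far longer than most members, and 46.2% of its window had no peak after mitosis.

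Rpl7a kept a rank of 118 to 252 through early-G1 and 175 to 190 in mid-G1 and stood at 453 and 1137 in control and 356 and 404 in auxin libraries in late-G1 (−1.62, SE 0.28, adjusted p = 0.00186, limma). Rps27, a zinc finger protein of the small subunit, ranked 27 to 108 in early-G1, 23 to 43 in mid-G1 and 126, 549, 191 and 148 in late-G1 (−1.61, SE 0.45, adjusted p = 0.0278, limma). For both genes the loss thus fell between mid-G1 and late-G1. The Rpl7a window also overlaps Med22 and Surf1 and the Rps27 window Rab13, and peaks cannot be assigned between these genes. Rpl28 went from 267 to 316 in early-G1 to 582 to 1212 in late-G1 (−1.39, SE 0.30, adjusted p = 0.00648, limma), and Rps16 from 358 to 619 to between 879 and 1388 (−1.34, SE 0.27, adjusted p = 0.00463, limma). Rps24 went from 266 to 324 to between 469 and 673 (−0.95, SE 0.30, adjusted p = 0.0497, limma), which is at the threshold.

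Rpl3, a protein of the peptidyl transferase region, ranked 58 and 46 in control and 125 and 94 in auxin libraries in early-G1 and 231 and 106 against 226 and 264 in late-G1 (−1.39, SE 0.39, adjusted p = 0.028, limma). It was the 1 called gene of the 11 whose early-G1 and late-G1 libraries overlapped. All of its summits lay beyond its annotated end.

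**Figure D4:**
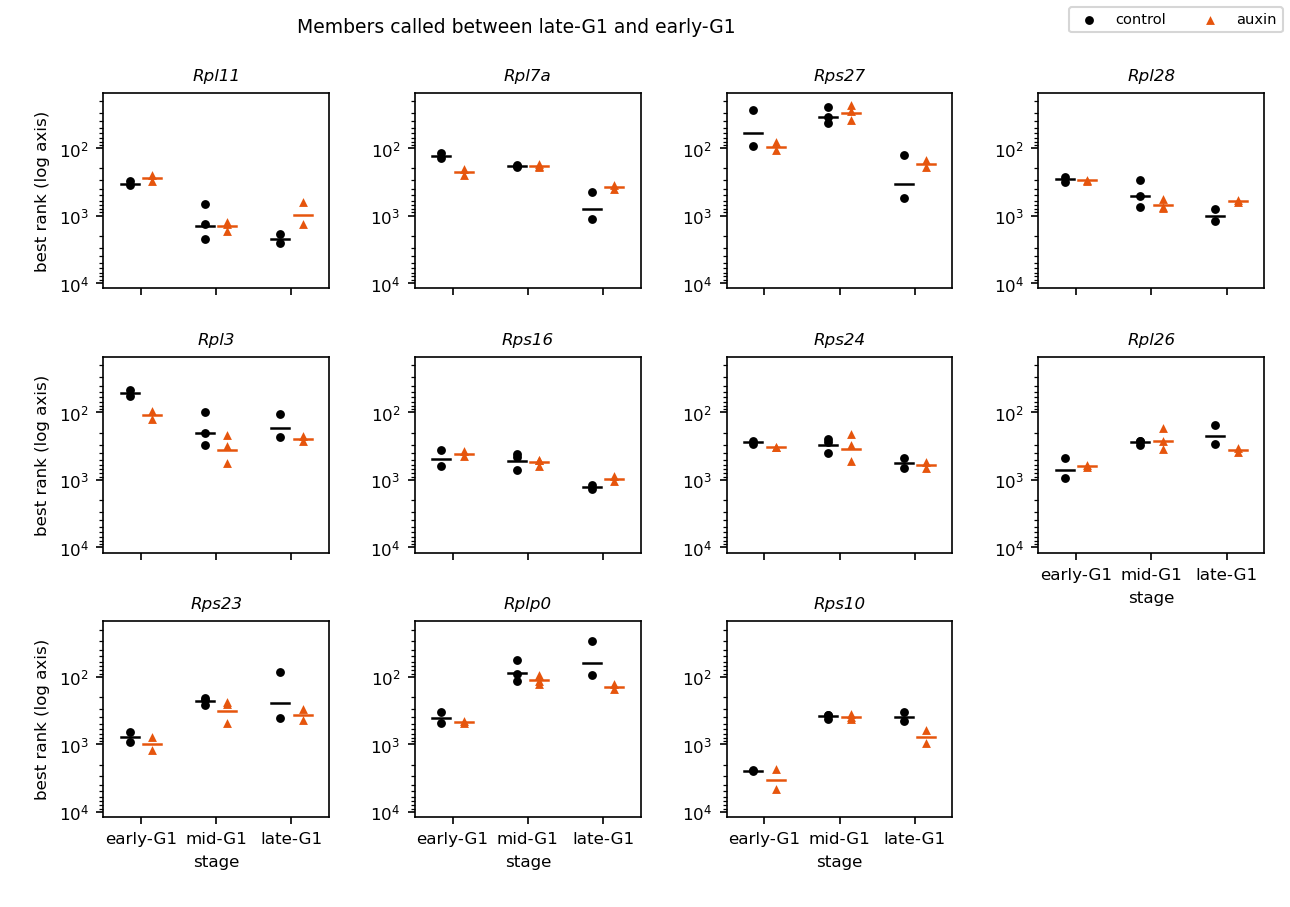
Best peak rank (log axis) by stage of the 11 members called between late-G1 and early-G1; circles are control and triangles auxin libraries, and bars are means. Rps10, Rplp0, Rps23 and Rpl26 move to stronger ranks after early-G1 (on the pileup scale relative to all genes, Rplp0 and Rps23 have the opposite sign), and the other 7 move to weaker ranks.

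The number called changed with single libraries. Without early-G1 auxin replicate 1 there were 6, without early-G1 control replicate 2 or early-G1 auxin replicate 2 there were 7, and without late-G1 control replicate 2 there were 17 (22.1% of the members, and 11.6% of all genes). In the fits with 6 or 7 members called, 7.79% to 9.09% of the members passed and 7.81% to 8.12% of all genes. Rps10, Rplp0, Rpl11, Rpl7a, Rpl28 and Rps16 passed whichever library was left out. Rps24 no longer passed in 10 of the 14 fits without 1 library, Rpl3 in 7, Rps27 in 6, Rpl26 in 5 and Rps23 in 3, and each of the 11 genes kept its direction. For covered length, 0 of 77 members passed between late-G1 and early-G1 (3.24% of all genes, 179 shorter and 125 longer; unadjusted 2 members, or 2.6%, and 21.7% of all genes), with a median difference of 0.01 in log2 covered bases against −0.11 for all genes. The member closest to the threshold was Rpl24, with −0.76 (SE 0.22, adjusted p = 0.0836, limma).

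**Figure D5:**
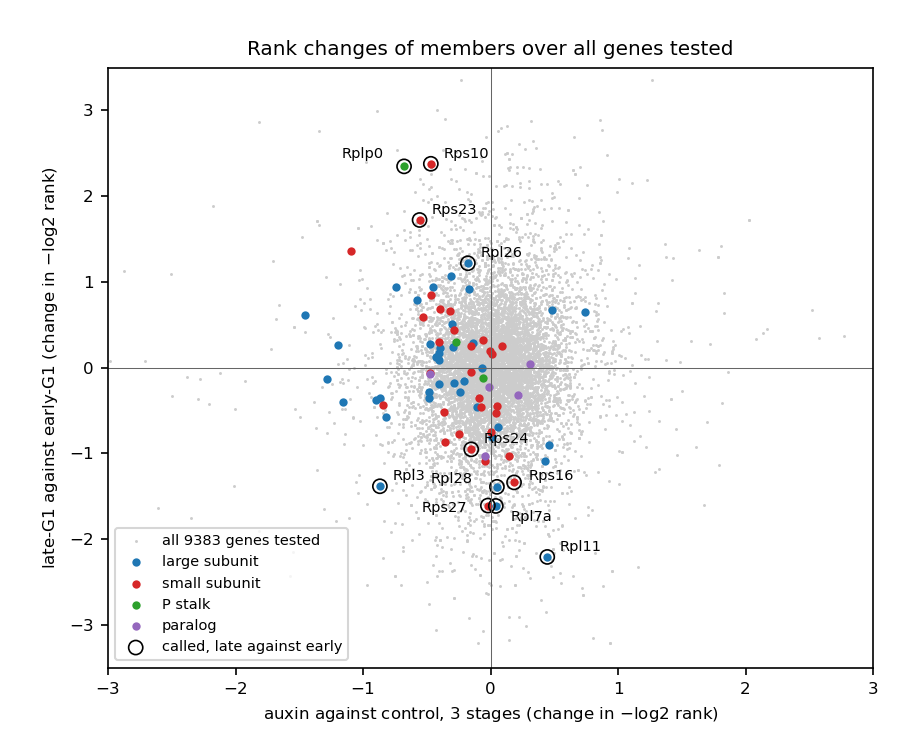
Difference in −log2 rank between auxin and control (horizontal) and between late-G1 and early-G1 (vertical) for 9383 genes (grey) and the 77 members by class, with the 11 called members circled; both axes come from the same libraries. Members spread over both directions vertically and lie mostly left of 0 horizontally, with a median of −0.27.

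Among the paralogs with a peak, Rpl22l1 stood above its parent gene. Rpl22l1 had a mean rank of 385.6 ± 215.3 and Rpl22 1810.7 ± 704.6 (SD, n = 14), and Rpl22l1 ranked ahead of Rpl22 in every one of the 14 libraries. Rpl22 is known to restrain expression of Rpl22l1, and a link to these ranks was not tested. In early-G1 Rpl22 ranked 819 and 902 in control and 1800 and 2797 in auxin libraries, and in late-G1 1503 and 870 against 2458 and 3152; conditions were apart in these stages and overlapped in mid-G1. For Rps27 and Rps27l the order was the reverse, with 108.4 ± 137.4 and 1486.4 ± 600.3. Rpl7l1 had a mean rank of 444.6 ± 149.5 and Rpl36al 1024.6 ± 398.7 (SD, n = 14).

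Other genes of the translation machinery had weaker ranks in the median. Translation factors had a median mean rank of 1779.7, with 5 of 17 in the top 1000, ribosome biogenesis genes 2554.5 with 6 of 34, and mitochondrial ribosomal protein genes 4317.8 with 6 of 77, close to the 4619.4 of all genes. Between late-G1 and early-G1, 2 of 17 translation factors (both weaker), 7 of 34 biogenesis genes (4 weaker, 3 stronger) and 12 of 74 detected mitochondrial ribosomal protein genes (9 weaker, 3 stronger) passed the limma threshold, and with auxin over the 3 stages 0, 1 (weaker) and 0.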

How the data were processed

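PolII ChIP-seq peak lists of 18 libraries in 8 groups were analysed, with groups taken from the sample titles; the 4 inputs entered only as controls of the peak calling. The authors aligned reads to mm9 in local mode with Bowtie2 2.2.9, removed alignments of low mapping quality, duplicates, mitochondrial reads, unplaced contigs and blacklisted intervals with SAMtools 0.1.19 and bedtools 2.27.1, and called peaks with MACS2 2.1.0 per library against the input of its stage (tools as in the submitters' processing notes). The deposited lists give the fold enrichment of each peak over local background (a linear ratio), the −log10 p-value, the −log10 q-value and a score written by the caller of the authors; that score was not used. A late-G1 replicate had been removed by the authors for a technical error, and the late-G1 libraries are numbered 2 and 3 in control and 1 and 2 in auxin.

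Genes came from GENCODE vM1 on NCBIM37 (mm9), with flanks of 500 bp. Peaks were ranked by fold enrichment within each list, and ties shared the best rank, which affects many prometaphase peaks. The −log2 ranks of 9383 genes were fitted with limma 3.58.1 in R 4.3.3 with 6 group means, and p-values were adjusted by Benjamini-Hochberg over all 9383; log2 covered bases were fitted in the same way. Other steps used Python 3.11.15, numpy 2.4.6, scipy 1.17.1 and pandas 2.3.3. Ranks cannot show a change shared by all genes. Depth was recovered by solving the fold enrichment and p-value of each peak for the pileup, and read totals were not used here. The fit was tested on simulated data with 9383 genes: in the auxin contrast over the 3 stages, 53 of 100 genes changed by 1 and 93 of 100 changed by 2 were called, with 8 false calls.

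Members, gene lists and comparisons were chosen with earlier results of these data known. Members were named when called, when among the 3 highest or lowest changes of a contrast, the 5 best or worst mean ranks or the 10 best prometaphase ranks, or when in the P stalk; Rpsa was named too, and Rpl38, Rpl23, Rpl22, Rpl24, the paralogs and the genes with a peak-free start were added after their values were seen. Some members that this rule names are not reported here. The study calls its replicates biological, and p-values measure the spread between these libraries. Replicate numbers were checked for pairing: control and auxin libraries of the same number had correlated deviations of 0.051 in early-G1 and of 0.044, 0.117 and 0.282 in mid-G1. The main fit took the numbers as names only. In mid-G1 the pair numbered 3 was the highest, and pairs of a replicate 3 with another number ranged from −0.232 to −0.072. Deviations cancel within a group, so these negative values follow in part from the value of the pair numbered 3. Whether replicates numbered 3 share a batch was not tested. Alternatives were another peak height, scale, window, overlap, threshold, filter, variance model, the replicate block and leaving out each library.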

Additional observations from a re-analysis of the deposited data

How the results depend on the processing

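Of the values that answer a comparison, 237 kept their size under an alternative and 26 did not. For auxin over the 3 stages 0 members were called, and 1 within 500 bp of the TSS; leaving out a library gave 0 to 9. In early-G1 ranks among genes and peaks with −log10 q of at least 5 gave 1, and leaving out a library 0 to 1. In mid-G1 the replicate block gave 1 and leaving out a library 0 to 2, with 2 without late-G1 control replicate 2 or 3. In late-G1 the TSS window gave 2 and leaving out a library 0 to 11. The difference between stages, and that between conditions of late-G1 against early-G1, gave 0 to 2 without a library. Late-G1 against early-G1 gave 11 members, 3 with ranks by −log10 p-value, 3 with normal scores, 0 on the pileup scale, 18 with the replicate block (12 weaker, 6 stronger) and 6 to 17 without a library. On the pileup scale, which shifts all genes by −0.11, Rpl26 (−0.027), Rps23 (−0.22) and Rplp0 (−0.15) were negative; relative to that shift Rpl26 was 0.09, Rps23 −0.11 and Rplp0 −0.04. Covered length with auxin gave 2 members in the TSS window, and for late-G1 against early-G1 0 to 1 without a library. The median mean rank of members was 454.9, 546.2 among genes and 432.5 to 473.2 without a library, and 63 to 65 members were detected in all prometaphase libraries. The causes of these shifts were not tested. The shares of all genes called are not given beside these counts, which therefore describe the members only. The median auxin difference of members stayed below that of all genes under every alternative. With the replicate block it was −0.147 for members and 0.034 for all genes, against −0.272 and 0.012 in the main fit. Only replicate number 2 occurs in both late-G1 conditions, so in the block fit the late-G1 auxin difference rests on 1 pair of libraries. Apart from the mid-G1 auxin count and that of late-G1 against early-G1, the replicate block changed no count by over 1.5 times. In mid-G1 control replicate 2 correlated best with auxin replicate 1 (0.148), not with its own number. For the 11 called changes, 205 alternatives kept the call, 65 lost it and 3 reversed the direction (1 each for Rpl26, Rplp0 and Rps23). For the 6 named auxin changes, which were not called, 143 gave no call and 7 gave 1. Rpl3 and Rps10 have no value in the TSS window. Depth limits which weak peaks are listed: a gene without a peak may still carry PolII.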
